A study of Gallus gallus with 8 samples.

Results

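The cornea and the neural retina are compared here at embryonic day (E) 18 in the chicken, late in incubation. Of the 8 libraries of the series, the 4 compared here are E18 cornea replicates 1 and 2 and E18 retina replicates 1 and 2. The other libraries, of E8 and E16 retina, also entered the fit. Standard errors and calls therefore draw on the spread of their replicates too. Whole corneas and whole retinas were taken from untreated Cobb/Hubbard F1 hybrid embryos and sequenced as poly(A) RNA, in biological duplicate. The corneas were cut free at the limbus with epithelium, stroma and endothelium together, and the retinas were peeled away from the pigment epithelium, so each library is a mixture of cell types. In such mixtures, fewer cells of a type and less RNA per cell cannot be told apart. The tissues were also handled differently. Corneas were frozen and ground before lysis, while retinas were warmed in a medium without calcium or magnesium and lysed directly. Effects of handling and of tissue cannot be told apart in any comparison below. Of the 16700 genes in the table, 14623 had at least 1 read in the 4 libraries, and 13194 passed the filter on low values and were tested.

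The cornea is the transparent front wall of the eye. Its outer face is a stratified epithelium that is held together by keratins and desmosomes and anchored to a basement membrane. Under it lies the stroma, in which keratocytes lay down thin collagen fibrils whose spacing is kept by small proteoglycans carrying keratan and dermatan sulfate. Its inner face is an endothelium that pumps water out of the stroma. In birds the keratocytes and the endothelium come from the periocular neural crest, the tissue has no blood vessels of its own, and sensory axons of the trigeminal nerve grow into it before hatching. The neural retina is a sheet of central nervous tissue with photoreceptors, bipolar, horizontal, amacrine and ganglion cells and Müller glia. Roles given below are those known from vertebrates in general, many of them from mouse and human.

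Values are normalized counts, which are reads on a gene divided by a size factor of the library. The reads on genes came to 15662779 and 25481358 in cornea and to 20288742 and 33517176 in retina, and 1 read was worth 0.757 to 1.84 normalized counts. A difference is a log2 fold change of cornea over retina on log2(normalized count + 1), with its standard error, on which the change of low genes comes out too small. Genes count as called where their Benjamini-Hochberg adjusted p from limma is under 0.05. Of the 13194 genes tested, 9420 were called, which is 71.4%. Of these, 4864 were higher in cornea (36.9% of the genes tested) and 4556 were lower (34.5%), and the median log2 fold change over all genes tested was 0.06. The libraries of the tissues did not overlap for 11508 genes, or 87.2%. Such shares are the background against which every count below has to be read. Among the called genes the median absolute log2 fold change was 1.66. Over 10-fold differences were held by 1254 genes higher and 1057 genes lower in cornea, and over 100-fold differences by 308 and 163. A stretch of 1155 consecutive genes in the table holds 1153 that are listed at 0 in all 8 libraries, among them KRT5, KRT7, KRT8, KRT18, COL2A1, FOXC2, GNAT2, OCLN and AQP5. For these genes a listing at 0 was not taken as a measure of expression. The labels of the tissues were checked against defining genes. KRT12 and LUM were high in both cornea libraries and at or near 0 in retina, and RBP3 and PRPH2 were high in both retina libraries and at or near 0 in cornea.

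**Figure D1:**
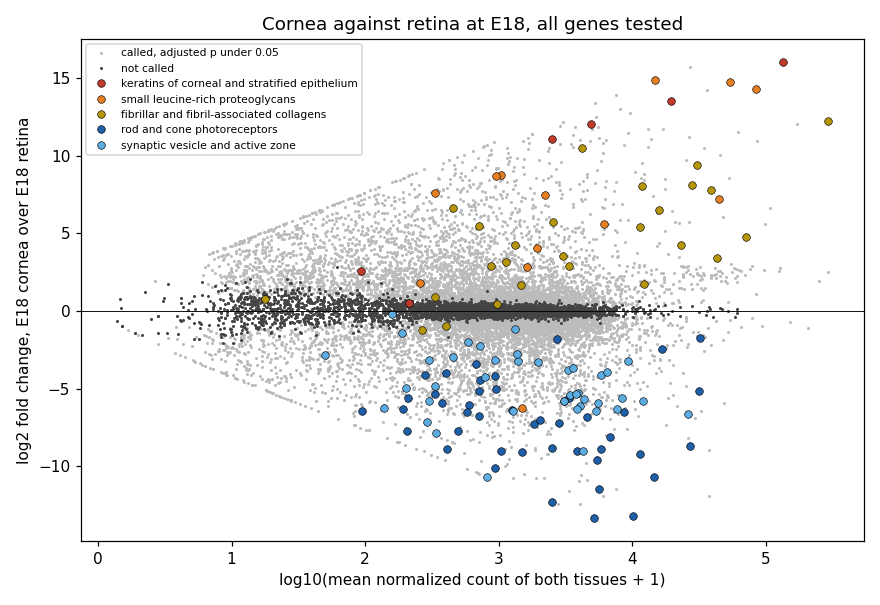
Every tested gene is plotted by its mean level in both tissues (x axis, log10 of normalized count + 1) and by its log2 fold change of E18 cornea over E18 retina (y axis). Grey points are called genes, black points are genes not called, and coloured points are members of 5 lists. Tested keratins, leucine-rich proteoglycans and collagens lie mostly above 0, while the photoreceptor and synaptic genes lie below it.

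Among the largest rises in cornea by the rule for named genes were those of KRT12, LYPD2, OGN, DCN, LUM, DPT, KRT15, FGFBP1, CYTL1, SCEL, COL1A2, CALML3, APOD and KRT19. They hold products of the epithelium and the stroma, with keratins and the envelope protein sciellin (SCEL) of the outer layer and a collagen and 3 proteoglycans of the stroma. Among the largest falls were those of PRPH2, RBP3, CNGB3, GABRA6, CHRNB3, CLUL1, PRA1, GLRA3, LACTBL1, TMEM244, LRIT2, IMPG1 and CPLX4, in which photoreceptor genes and neurotransmitter receptor subunits stand together.

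The outer layer was marked by its keratins. KRT12, the keratin of differentiated corneal epithelium, had 278539 and 256680.1 normalized counts in cornea, against 3.76 and 2.27 in retina. The 3 reads in each retina library set the low end, so the ratio of 94510.0-fold (43420.0 to 257500.0) has a wide 95% counting interval, and the log2 fold change was 16.05 ± 0.41 (adjusted p = 1.88e-08, limma). KRT15, a keratin of basal cells, had 37946 and 40262 in cornea, against 2.51 and 2.27 in retina. KRT14, which pairs with keratin 5 in basal layers, had 4992 and 5114 in cornea, against 1.25 and 1.51 in retina. KRT19, found in simple and limbal epithelia, had 9054 and 10681 in cornea, against 1.25 and 1.51 in retina. All 3 were near the value of a few reads in both retina libraries and abundant in both cornea libraries. KRT20 was also called, with 157 and 159.7 in cornea, against 25.1 and 27.3 in retina, while KRT222 had 273 and 222 in cornea, against 175 and 176 in retina and was not. Of the 6 keratins tested, 5 were higher and none was lower, with a median log2 fold change of 11.53. Of 18 keratins on the list, 13 have a row, and 7 of those lie in the stretch listed at 0.

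Transcription factors of surface epithelia rose with the keratins. Of 24 tested, 19 were higher, 1 was lower and 4 were not called, at a median of 5.86. TP63, which maintains the basal cells of stratified epithelia, had 2957 and 2293 normalized counts in cornea, against 46.4 and 46.9 in retina. KLF4 and KLF5 are zinc finger factors needed for the corneal surface in mouse. KLF4 had 9703 and 6825 in cornea, against 52.6 and 56.8 in retina, and KLF5 had 5654 and 7084 in cornea, against 268 and 251 in retina. Their retinal levels were low but well above the value of 1 read. EHF, an ETS factor of epithelia, had 1596 and 1904 in cornea, against 0 and 0.757 in retina, a single read in retina, and its ratio was 3708-fold (666 to 146400.0). ELF5 had 489 and 468 in cornea and no read in retina, which makes it at least 127-fold higher when 3 reads in the shallower retina library are taken as the floor. PITX1 had 806 and 889 in cornea and no read in retina either, at least 226-fold higher. BNC1, ZNF750, GRHL1, GRHL2, OVOL2 and ELF3 were called higher, with log2 fold changes between 4.63 for GRHL1 and 7.72 for ELF3.

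Several regulators of surface ectoderm did not separate the tissues. PAX6, the regulator of eye development that both corneal epithelium and retinal cells use, is listed as PAX-6 and had 26250.3 and 23620.4 normalized counts in cornea, against 19707 and 21255 in retina. Its libraries did not overlap, but the log2 fold change of 0.28 ± 0.13 was not called, whereas it passed at 0.36 without cornea replicate 2 and narrowly with TMM scaling. TFAP2A had 1328 and 1311 in cornea, against 1049.9 and 1186 in retina, and TFAP2B had 4579 and 4135 in cornea, against 3682 and 3410.2 in retina. Both are AP-2 factors that work in surface ectoderm and neural crest on one side and in amacrine and horizontal cells on the other, and neither was called, apart from TFAP2B with TMM scaling or edgeR. TFAP2C was the member that moved against its list, with 1387 and 1429 in cornea, against 2084 and 2153 in retina and a log2 fold change of -0.59 ± 0.12.

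Junction genes of the epithelium showed large differences. All 8 desmosome genes that were tested were higher in cornea, at a median of 6.72; 4 of 12 on that list have no row. DSP, the plakin that ties desmosomes to keratin, had 45026 and 55959.9 normalized counts in cornea, against 70.2 and 49.2 in retina. PKP1, a plakophilin of upper cell layers, had 13426 and 12017 in cornea, against 5.01 and 5.30 in retina. PERP, a desmosomal membrane protein under p63 control, had 23839 and 23934 in cornea, against 31.3 and 31.8 in retina. PKP2, the plakophilin used widely outside skin, differed least, with 1189.8 and 1577 in cornea, against 823 and 839.7 in retina. E-cadherin (CDH1) had 13509 and 11365 in cornea, against 38.8 and 59.1 in retina, with a log2 fold change of 7.99 ± 0.35, and EPCAM had 13798 and 15465 in cornea, against 65.2 and 70.4 in retina. P-cadherin (CDH3) had 2287 and 3107 in cornea, against 1874 and 2443 in retina, which was not called. Of 14 genes for epithelial adhesion and splicing, 11 were higher and 2 were lower. The lower ones were cingulin (CGN), with 498 and 469 in cornea, against 858 and 1113 in retina, and MYO5B, which had only 2 reads in all of the cornea libraries. Neither was called without cornea replicate 1, without cornea replicate 2 or without retina replicate 2.

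ESRP2 and ESRP1 make epithelial splice forms. ESRP2 had 7779 and 6582 in cornea, against 1.25 and 2.27 in retina, with a log2 fold change of 11.36 ± 0.41, and ESRP1 had 1854 and 1527 in cornea, against 77.7 and 46.2 in retina. CLDN1, the claudin of skin and corneal barriers, had 19722 and 17479 normalized counts in cornea, against 3.76 and 8.33 in retina. CLDN3 had 517 and 496 in cornea, against 2.51 and 0 in retina, with 2 reads in retina. Among connexins, GJA1 (connexin 43) had 10679 and 7473 in cornea, against 45.1 and 33.3 in retina, and GJB6 (connexin 30) had 4888 and 5923 in cornea, against 12.5 and 20.4 in retina. GJD2, the connexin of neuronal electrical synapses, ran the other way with 33.2 and 87.2 in cornea, against 6476 and 6633 in retina and a log2 fold change of -6.90 ± 0.35. In all, 9 of 14 claudins and connexins tested were higher, 3 were lower and 2 were not called, at a median of 3.29.

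Anchorage genes at the base of the epithelium were called in nearly the whole of their list, 20 of 22 higher, at a median of 3.49. COL17A1, the transmembrane collagen of hemidesmosomes, had 36829.7 and 33704 normalized counts in cornea, against 148 and 156 in retina. COL7A1, which forms anchoring fibrils, had 14125 and 11456 in cornea, against 33.8 and 40.9 in retina. ITGB4, the hemidesmosomal integrin, had 7827 and 4783 in cornea, against 974 and 849 in retina. Of the chains of laminin-332, LAMA3 had 8999 and 10601 in cornea, against 427 and 373 in retina, and LAMB3 had 4097 and 3065 in cornea, against 0 and 0.757 in retina, with 1 read in retina. The collagen IV chains COL4A2, COL4A5 and COL4A6 were higher by log2 fold changes of 4.74, 5.40 and 4.74. COL4A1 was higher too, with 3605 and 3464 in cornea, against 112 and 22.7 in retina, its retina replicates being far apart. FRAS1, a basement membrane protein, was the one lower member, with 598 and 599 in cornea, against 1269 and 803 in retina, and it was not called without cornea replicate 1, cornea replicate 2 or retina replicate 1. Dystonin (DST) had 6753 and 6461 in cornea, against 9468 and 5821 in retina, and was called, as lower, only without retina replicate 2.

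Surface and barrier genes had some of the largest differences. LYPD2, a small GPI-anchored protein of the Ly6 family, had 52633 and 55619.6 in cornea and no read in retina, at least 14400-fold higher (adjusted p = 1.88e-08, limma). SCEL had 9296 and 11982 in cornea, against 0 and 2.27 in retina, with 3 reads in retina, and its ratio was 7514-fold (2571 to 36440.0). AQP3, the aquaglyceroporin of stratified epithelia, had 58819 and 78352 normalized counts in cornea, against 43.9 and 49.97 in retina. ANXA1 had 12371 and 9979 in cornea, against 2.51 and 1.51 in retina, and SFN (14-3-3 sigma) had 8690.4 and 7557 in cornea, against 1.25 and 6.06 in retina. PSCA had 92084 and 96521 in cornea, against 1442 and 1422 in retina, with a log2 fold change of 6.04 ± 0.36. S100A4 had 19674 and 32916 in cornea, against 13.8 and 18.9 in retina, and in cornea its replicates were further apart than those of most genes named here. Of 16 tested, 14 were higher, none was lower and the remaining 2, MUC5B and CLCA2, were not called. MUC5B had 49.8 and 36.9 in cornea, against 118 and 117 in retina. It was called, as lower, in a fit of the 4 E18 libraries alone with the replicate number as a block. MUC16, a membrane mucin of the ocular surface, had 688 and 729.7 in cornea, against 1.25 and 0.757 in retina.

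**Figure D2:**
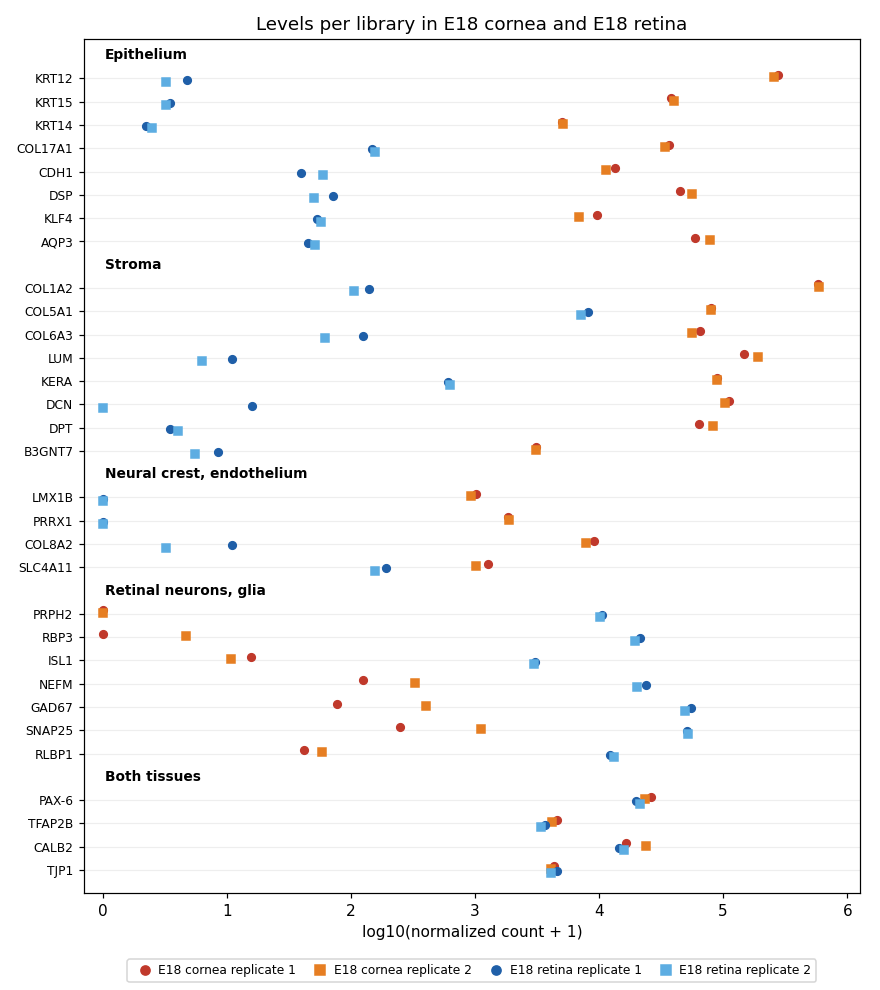
The 4 E18 libraries are shown for 31 genes as log10 of normalized count + 1 (x axis), with cornea replicates in red and orange and retina replicates in dark and light blue. Epithelial and stromal genes lie to the right in both cornea libraries, retinal genes lie to the right in both retina libraries, and the 4 genes in the lowest block, PAX-6, TFAP2B, CALB2 and TJP1, lie close together in the 4 libraries.

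Some enzymes that accumulate as corneal proteins in mammals were lower in cornea than in retina. ALDH1A1, an aldehyde dehydrogenase, had 42.4 and 46.7 normalized counts in cornea, against 624 and 766 in retina. Its log2 fold change was -3.93 ± 0.23. Enolase ENO1 had 102230.3 and 127991 in cornea, against 187988 and 190719 in retina, lactate dehydrogenase LDHA had 64375 and 63412 in cornea, against 124917 and 124359 in retina, and GAPDH had 118648 and 146376 in cornea, against 273354 and 288253 in retina. All 4 were called lower, but the last 3 were well detected in both tissues. In a fit of the 4 E18 libraries alone, with the replicate number as a block, ENO1 and GAPDH were not called (adjusted p of 0.217 and 0.118, limma). Transketolase (TKT), another corneal enzyme, was higher with 40632 and 44686 in cornea, against 12743 and 12886 in retina. GSTA3, a glutathione transferase, had 91872 and 89391 in cornea, against 90.2 and 81.8 in retina and a log2 fold change of 10.03 ± 0.21. PTGDS, which makes prostaglandin D2, had 2749 and 3559 in cornea, against 18.8 and 20.4 in retina. The list of 18 enzymes split evenly, with 9 higher and 9 lower, at a median of 0.26. Of the 9 lower ones, 3 were at least 2-fold apart.

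In the stroma the collagens dominated. COL1A2, a chain of type I collagen and the main fibril component, had 575252 and 587560.2 normalized counts in cornea, against 139 and 105 in retina, the log2 fold change being 12.22 ± 0.15 (adjusted p = 1.47e-09, limma). COL5A1 and COL5A2 are chains of type V collagen, which limits fibril diameter in the avian stroma. COL5A1 had 79119.7 and 80048 in cornea, against 8124 and 7134 in retina, and COL5A2 had 132371 and 142988 in cornea, against 4898 and 5044 in retina. Both type V chains were also well detected in retina. COL3A1 had 27361 and 19578 in cornea, against 91.5 and 84.8 in retina. The 3 chains of the beaded filament collagen VI differed more than those of type V, with log2 fold changes of 8.09 ± 0.28 for COL6A1, 7.79 ± 0.19 for COL6A2 and 9.43 ± 0.34 for COL6A3. COL12A1 and COL14A1, fibril-associated collagens, had log2 fold changes of 5.43 and 4.25. COL20A1 and COL9A1, both known from chicken cornea, had 1839 and 1282 in cornea, against 209 and 196 in retina for COL20A1 and 1957 and 2094 in cornea, against 239 and 223 in retina for COL9A1. Of 26 collagens tested, 22 were higher, at a median of 4.25. COL9A3 and COL25A1 were lower, with 234 and 287 in cornea, against 754 and 348 in retina for COL9A3 and 186 and 128 in cornea, against 461 and 298 in retina for COL25A1. Neither was called without cornea replicate 2 or without retina replicate 1, nor was COL9A3 without cornea replicate 1. The cartilage collagen COL2A1 lies in the stretch listed at 0.

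The leucine-rich proteoglycans set the tissues apart further. Lumican (LUM), a keratan sulfate proteoglycan, had 147625 and 189813 normalized counts in cornea, against 10.02 and 5.30 in retina. Decorin (DCN), the dermatan sulfate proteoglycan, had 110367 and 104218 in cornea, against 15.04 and 0 in retina. All of the retinal decorin reads fell in replicate 1, so its standard error is large, at 14.71 ± 1.12 on the log2 scale. Osteoglycin (OGN, mimecan) had 31399 and 28067 in cornea and no read in retina, at least 7910-fold higher. Keratocan (KERA), which is largely restricted to cornea in mammals, had 89802 and 89359 in cornea, against 604 and 631 in retina. It was thus well detected in both retina libraries, and the log2 fold change was 7.18 ± 0.19. EPYC, OMD, ASPN, ECM2, PODN, PRELP, FMOD and CHAD were higher by log2 fold changes between 1.80 for CHAD and 8.76 for EPYC. Opticin (OPTC), the proteoglycan of the vitreous and of the retinal surface, was the one lower member, with 22.1 and 65.1 in cornea, against 2683 and 3232 in retina. Of the 13 tested, 12 were higher, at a median of 7.48.

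Enzymes that build the proteoglycans' sugar chains differed less than the core proteins, 19 of 27 being higher and 5 lower, at a median of 1.17. B3GNT7, which extends keratan sulfate, had 3112 and 3076 normalized counts in cornea, against 7.52 and 4.54 in retina. B4GALT1, listed under its synonym CKI, had 2406 and 2639 in cornea, against 103 and 89.3 in retina. DSE, the epimerase that turns chondroitin into dermatan sulfate, had 2295 and 1921 in cornea, against 185 and 182 in retina. The sulfate transporter SLC26A2 had 531 and 466 in cornea, against 20.05 and 31.8 in retina. The 5 lower members were CHST2, FUT8, DSEL, CHST11 and CHSY3. FUT8, the core fucosyltransferase of N-glycans, had 1230.4 and 1472 in cornea, against 5226 and 5218 in retina.

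Collagen processing genes followed the collagens, with 19 of 23 higher at a median of 2.84. Lysyl oxidase (LOX), which crosslinks fibrils, had 40239 and 47949.6 normalized counts in cornea, against 1012 and 774 in retina. PLOD1, a lysyl hydroxylase, had 34939 and 33192 in cornea, against 997 and 963 in retina. SERPINH1 (HSP47), the collagen chaperone, had 33052 and 35401 in cornea, against 2778 and 2719 in retina, with a log2 fold change of 3.64 ± 0.11. CREB3L1, a transcription factor of collagen-secreting cells, had 2527 and 1999.8 in cornea, against 50.1 and 43.9 in retina. PCOLCE2, LEPREL2 and ADAMTS3 were lower, each by less than 2-fold.

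Other matrix proteins of the stroma rose in 31 of 34 cases, at a median of 4.71. Dermatopontin (DPT), which binds decorin, had 63659 and 82812 normalized counts in cornea, against 2.51 and 3.03 in retina. Its 6 retinal reads gave a ratio of 25860.0-fold (11880.0 to 70470.0). SPARC, the collagen-binding glycoprotein, had 215186 and 171249 in cornea, against 4036 and 4015 in retina. Its relative SPARCL1 ran the other way, with 149 and 154 in cornea, against 73628 and 75972 in retina and a log2 fold change of -8.94 ± 0.13, the only lower member. Periostin, listed as OSF-2, had 15403 and 19184 in cornea, against 8.77 and 9.84 in retina. Elastin (ELN) had 21072 and 20546 in cornea, against 42.6 and 41.6 in retina, and the microfibril protein FBN2 had 7157 and 9589 in cornea, against 57.6 and 62.8 in retina. ANGPTL7, a secreted factor known from keratocytes in human, had 62294 and 43977 in cornea, against 26.3 and 17.4 in retina. THBS4, a thrombospondin, had 36999 and 41594 in cornea, against 445 and 463 in retina. Tenascin C (TNC) had 1651 and 1484 in cornea, against 2320.4 and 1803 in retina and SMOC1 had 537 and 639 in cornea, against 444 and 399 in retina, and neither was called.

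Markers shared by keratocytes and other fibroblasts were higher in 23 of 28 cases, at a median of 3.92. Apolipoprotein D (APOD), a lipid carrier, had 354011 and 336759 normalized counts in cornea, against 82.7 and 79.5 in retina, with a log2 fold change of 12.04 ± 0.19. AQP1, the water channel of keratocytes and corneal endothelium, had 29249.8 and 31777 in cornea, against 466 and 320.3 in retina. PDGFRA had 7547 and 7660.1 in cornea, against 921 and 760.2 in retina, and PDGFRB had 1116 and 927 in cornea, against 7.52 and 4.54 in retina. The 5 lower members were DLK1, IGFBP5, IGF1, IGF2 and SFRP1. IGF2 had 218 and 247 in cornea, against 688 and 772 in retina. SFRP1, a secreted Wnt antagonist, had 3474 and 3460.3 in cornea, against 24979 and 26769 in retina.

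Remodelling enzymes were mixed. Of 36 proteases and inhibitors tested, 24 were higher, 5 were lower and 7 were not called, at a median of 1.98. MMP2, a gelatinase, had 20909.8 and 25298 normalized counts in cornea, against 60.1 and 61.3 in retina. Cathepsin K (CTSK) had 5754 and 5784 in cornea, against 21.3 and 29.5 in retina. SERPINB5 (maspin) had 6658 and 7789 in cornea, against 6.26 and 2.27 in retina, and SERPINF1 (PEDF), an inhibitor of vessel growth, had 7615 and 8599.9 in cornea, against 273 and 212 in retina. MMP9 had only 5 reads in cornea, and HTRA1 had 5337 and 7224 in cornea, against 10913 and 10964 in retina, both called lower. With library total scaling 8 members were lower in place of 5.

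The genes of the endothelium fell into opposite sets, and the list as a whole did not stand apart. SLC4A11, a membrane carrier mutated in human endothelial dystrophy, had 1277 and 1022 normalized counts in cornea, against 190.4 and 156 in retina. COL8A1 and COL8A2 are the chains of Descemet's membrane. COL8A1 had 5315 and 4670.3 in cornea, against 101 and 81.8 in retina, and COL8A2 had 9046 and 7898 in cornea, against 10.02 and 2.27 in retina, with a log2 fold change of 10.46 ± 0.55. LMX1B had 1018 and 924 in cornea and no read in retina, at least 258-fold higher. The sodium pump subunit ATP1B1 had 2946 and 2862 in cornea, against 3215 and 3066 in retina, not called. CA2, a carbonic anhydrase with a role in the pump, had 1598 and 1533 in cornea, against 92251 and 100367 in retina, with a log2 fold change of -5.94 ± 0.12. CA14 had 1.84 and 2.46 in cornea, against 2071 and 2708 in retina, with 3 reads in cornea. The lactate carriers SLC16A1 and SLC16A3 were lower by log2 fold changes of -3.49 and -4.81. N-cadherin (CDH2), which joins endothelial cells, had 1994 and 2276 in cornea, against 5099 and 4575 in retina. TJP1 had 4352 and 4119 in cornea, against 4537 and 4114 in retina, not called. Of 27 tested members, 13 were higher, 10 were lower and 4 were not called, at a median of 0.35. Many of these genes are also used by retinal neurons, glia or by other corneal cells.

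Regulators of the periocular neural crest were higher as a group, 26 of 33 tested, with 4 lower. The median was 5.05, or 4.76 when genes without reads in retina are set to their bound. PRRX1, a homeodomain factor of mesenchyme, had 1852 and 1862 normalized counts in cornea and no read in retina, at least 494-fold higher, and PRRX2 had 935 and 753 in cornea and no read in retina, at least 225-fold higher. TWIST2, listed as CDERMO-1, had 5058 and 6467 in cornea, against 2.51 and 2.27 in retina. TWIST1 had 367 and 462 in cornea and no read in retina, at least 110-fold higher. OSR2, ALX1, OSR1 and TBX15 also had no read in retina, and were at least 147-fold, 67-fold, 32-fold and 18-fold higher. SNAI2 had 2549 and 2457 in cornea, against 23.8 and 36.3 in retina, and the endothelial and neural crest factor ETS1 had 815 and 666 in cornea, against 10.02 and 12.9 in retina. The lower members were ZEB2, SOX9, EBF1 and EBF3. ZEB2, used in neural crest and in neurons, had 2210.0 and 2082 in cornea, against 9254 and 9125 in retina. FOXC2 lies in the stretch listed at 0.

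Genes of nerve and its glia have to be read by library. Cornea replicate 2 had more reads from neural and glial genes than cornea replicate 1. Over 12136 tested genes with at least 20 normalized counts in cornea, the median log2 ratio of replicate 2 over replicate 1 was 0.00155. It was 0.714 for 16 sensory axon genes, 0.523 for 33 synaptic genes, 0.501 for 22 amacrine and horizontal genes, 0.542 for 20 Müller glia genes and 0.250 for 13 Schwann cell genes. The median was also 0.387 for 9 bipolar genes, 0.49 for 15 ganglion cell genes and 0.577 for 15 eye field genes. For 14 lens genes it was 0.421, and for 22 photoreceptor genes it was -0.136. The photoreceptor genes that reach 20 normalized counts include PDE6H and PROM1, which were well detected in both cornea libraries. Among the same 12136 genes, those over 2-fold higher in cornea replicate 2 numbered 267 and those over 2-fold lower 122. Between the retina replicates these genes gave 56 and 31. They were chosen by their level in cornea alone, so these counts do not compare the tissues on equal terms. Over all tested genes, 6.59% were over 2-fold apart between the cornea replicates and 2.93% between the retina replicates. GPM6A, a neuronal membrane protein chosen after its values were seen, had 244 normalized counts in cornea replicate 1 and 2179 in replicate 2. The part of this difference in the nerve results was not tested, and they are given with and without replicate 2.

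**Figure D3:**
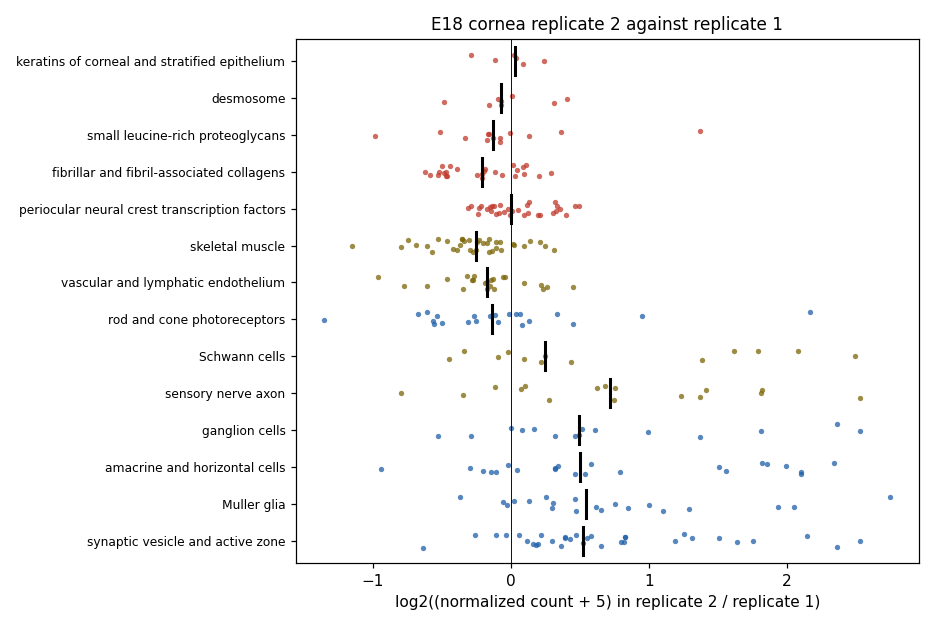
For tested genes with at least 20 normalized counts in cornea, the log2 ratio of E18 cornea replicate 2 over replicate 1 is plotted by list, with 5 added to both values (x axis), and black bars mark the list medians. Corneal lists and photoreceptor genes centre near 0, while sensory axon genes have a median of 0.714 and reach above 2.

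Schwann cells wrap the corneal nerves and come from the neural crest. SOX10, their defining regulator, had 542 and 427 normalized counts in cornea, against 608 and 555 in retina, which was not called. CDH19, a cadherin of Schwann cell precursors listed as CAD19, had 367 and 391.9 in cornea, against 3.76 and 0.757 in retina, with a log2 fold change of 7.04 ± 0.53. PMP22, a peripheral myelin protein that fibroblasts also make, had 4392 and 5933 in cornea, against 277 and 290.0 in retina. MBP, a myelin gene shared with the central nervous system, had 1468 and 6239 in cornea, against 10847 and 9602 in retina. It was lower in cornea, and its cornea replicates were further apart than those of retina. The log2 fold change of MBP was -2.80 without cornea replicate 2 and -0.71, not called, without cornea replicate 1, and it was not called without either retina replicate. Of 15 tested, 4 were higher and 9 were lower, at a median of -1.36. Without cornea replicate 2 the counts were 4 and 9, and the median was -2.02. Without cornea replicate 1 they were 4 and 7, and the median was -0.71.

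The cell bodies of corneal sensory axons lie in the trigeminal ganglion, outside the dissected tissue. Of 24 genes of such neurons, 4 were higher, 18 were lower and 2 were not called, at a median of -3.18. The medium neurofilament NEFM had 124 and 328 normalized counts in cornea, against 23769 and 20319.6 in retina. STMN2, a growth cone protein, had 129 and 466 in cornea, against 11388 and 11808 in retina, and GAP43 had 46.1 and 289.9 in cornea, against 1747 and 2075 in retina. Both were higher in cornea replicate 2 than in replicate 1 and far below retina in each. NEFM, STMN2 and GAP43 are on the ganglion cell list as well. The count and median of the sensory axon list are thus not separate from the ganglion cell result. Nor do they measure the nerve supply of the cornea. The nociceptor channel SCN10A had 2 reads in cornea. TRPV1 had 62.7 and 66.3 in cornea, against 55.1 and 53.8 in retina, not called. The members that were higher were PIEZO2, NTRK3, RUNX1 and RUNX3. PIEZO2, a mechanically gated channel, had 1743 and 1610.4 in cornea, against 217 and 126 in retina, with a log2 fold change of 3.33 ± 0.27. RUNX1, which blood cells also use, had 116 and 189 in cornea, against 20.05 and 15.1 in retina. Without cornea replicate 2, 3 were higher and 17 lower, at a median of -3.09.

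Neurotrophins and genes of axon guidance in general, receptors among them, were spread over both directions. Of 40 tested, 14 were higher, 17 lower and 9 not called, at a median of -0.17. NTN1 (netrin 1) had 1267 and 1104 normalized counts in cornea, against 10.02 and 9.84 in retina. SLIT2, which is repellent for several axon types, had 1972 and 2219.7 in cornea, against 6018 and 4918 in retina, and SLIT3 had 1293 and 1235 in cornea, against 199 and 164 in retina. SEMA3A, a repellent of trigeminal axons in the chick cornea, had 847 and 876 in cornea, against 4155 and 3799 in retina and was called lower. SEMA3E had 6822 and 8698 in cornea, against 2894 and 2750.0 in retina. EPHB3 had 3289 and 2793 in cornea, against 189 and 196 in retina.

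Muscle genes were present in both cornea libraries. Of 37 skeletal muscle genes tested, 31 were higher, 2 were lower and 4 were not called, at a median of 4.32. The median was 4.16 when genes without reads in retina are set to their bound. Skeletal alpha-actin (ACTA1) had 4366 and 3382 normalized counts in cornea, against 106 and 117 in retina. Cardiac alpha-actin (ACTC1), an embryonic form in skeletal muscle, had 3684 and 2881 in cornea, against 124 and 132 in retina. TNNC2, the fast troponin C, had 1015 and 1082 in cornea, against 0 and 3.79 in retina, and TNNT3, the fast troponin T, had 716 and 517 in cornea, against 2.51 and 1.51 in retina. MYOG, the differentiation factor of muscle, had 111 and 112 in cornea and no read in retina, at least 30-fold higher. MYF5 had 66.4 and 67.6 in cornea and no read in retina, at least 18-fold higher. CHRNG, the fetal subunit of the muscle acetylcholine receptor, had 79.3 and 99.5 in cornea and no read in retina, at least 24-fold higher. The muscle regulators were thus low in number but present in both cornea libraries. The summed level of the list was 1039 and 810.1 RPM (reads of a library scaled to a common total) in cornea, against 240.1 and 210.4 in retina. The lower members were RYR3 and MYOZ1. RYR3, a calcium release channel also used by neurons, had 325 and 275 in cornea, against 783 and 470.2 in retina, and it was not called without retina replicate 1.

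Genes of contractile fibroblasts and smooth muscle were higher in 11 of 15 cases and lower in 3, at a median of 4.74. ACTG2 had 2139.9 and 1598 normalized counts in cornea, against 6.26 and 6.06 in retina. TAGLN had 1802 and 2026 in cornea, against 5.01 and 0.757 in retina, and CALD1, used in many motile cells, had 4446 and 3419.8 in cornea, against 101 and 117 in retina. MYOCD, the coactivator of smooth muscle genes, had 345 and 324 in cornea, against 7.52 and 7.57 in retina. MYH11, the smooth muscle myosin, had 839 and 808 in cornea, against 697 and 512 in retina. It was not called in the main fit. In a fit of the 4 E18 libraries alone, with the replicate number as a block, it was called, as higher.

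**Figure D4:**
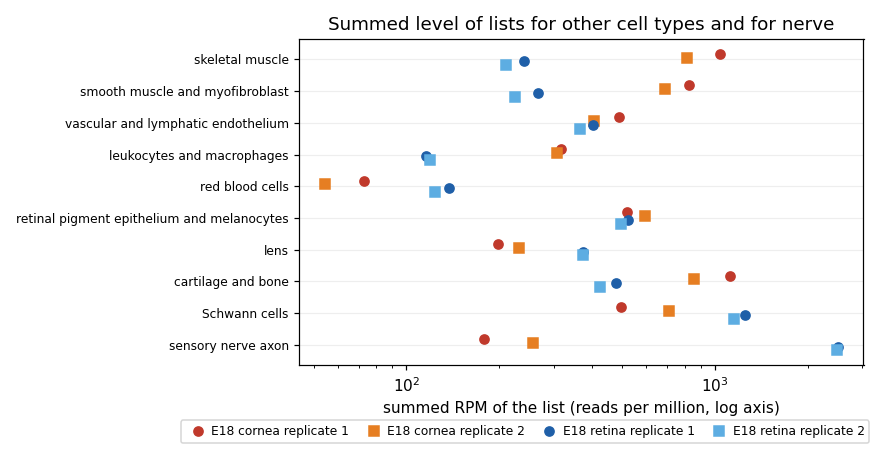
The summed RPM of 10 lists (x axis, log scale) are plotted for each of the 4 E18 libraries, cornea in red and orange and retina in blue. Skeletal muscle, smooth muscle, leukocyte and cartilage lists sum higher in both cornea libraries. Red cell, lens, Schwann cell and sensory axon lists sum higher in both retina libraries. Most retinal reads on the red cell list come from TFRC and SPTB, and the tested globins are higher in cornea. On the lens list PROX1 has the most retinal reads.

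Endothelial genes of vessels were also found in the cornea libraries. Of 23 tested, 19 were higher and 4 lower, at a median of 4.46. VE-cadherin (CDH5) had 1759.9 and 1610.4 normalized counts in cornea, against 12.5 and 0.757 in retina. ERG, an ETS factor of endothelium and cartilage, had 3394 and 2673 in cornea, against 1.25 and 0 in retina, with 1 read in retina and a ratio of 6428-fold (1154 to 253900.0). TIE1 had 505 and 419 in cornea, against 5.01 and 3.79 in retina, and LYVE1, a receptor of lymphatic endothelium and macrophages, had 328 and 383 in cornea, against 3.76 and 3.79 in retina. The avian retina has no vessels within it. The lower members were KDR, FLT1, ESAM and STAB2. KDR, the main receptor for VEGF, which retinal neurons and glia also carry, had 448 and 367 in cornea, against 7396 and 6614 in retina, with a log2 fold change of -4.10 ± 0.17. The summed level of the list was 489.6 and 405 RPM in cornea, against 402 and 365 in retina.

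Genes of white blood cells were higher in 22 of 30 cases, lower in 1 and not called in 7, at a median of 1.34. LY86, a myeloid receptor partner, had 504 and 735 normalized counts in cornea, against 11.3 and 6.06 in retina. CTSS had 1634 and 1664 in cornea, against 61.4 and 83.3 in retina, and the scavenger receptor MARCO had 245 and 286 in cornea, against 6.26 and 5.30 in retina. C1QA had 362 and 462 in cornea, against 7.52 and 18.2 in retina. The T cell receptor chain CD3E had 291 and 203 in cornea, against 1.25 and 0.757 in retina, with 2 reads in retina. CSF1R, the receptor of macrophage growth, had 788 and 504 in cornea, against 461 and 409.6 in retina, and was called, as higher, without cornea replicate 2 and with both count tests. PTPRC, found on all leukocytes, had 183 and 225 in cornea, against 50.1 and 42.4 in retina. The lower member was LCP1, with 389 and 403 in cornea, against 669 and 655 in retina. IKZF1 had 25.8 and 23.3 in cornea, against 42.6 and 46.2 in retina, and was not called. Without cornea replicate 1 the number higher was 16.

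Genes of pigment cells and lens went in both directions. The pigment cell list summed to 520.2 and 592.2 RPM in cornea, against 524.1 and 496.6 in retina. The melanin enzymes TYR and TYRP1 were near the floor in both tissues, TYR with 3.69 and 17.2 normalized counts in cornea, against 15.04 and 3.03 in retina, and TYRP1 with 3.69 and 7.37 in cornea, against 23.8 and 3.03 in retina, and TYRP1 was called only without retina replicate 2, as lower. RPE65, the isomerase of the pigment epithelium, had 94.1 and 28.3 in cornea, against 86.5 and 108 in retina, called only without cornea replicate 1, as lower. TTR had 162 and 398 in cornea, against 5.01 and 8.33 in retina, and its cornea replicates were far apart. Of 21 pigment cell genes 6 were higher, 8 lower and 7 not called. For lens, CRYAA had 157 and 356 in cornea, against 5.01 and 4.54 in retina, while the fibre cell protein BFSP1 (filensin) had 12.9 and 12.3 in cornea, against 104 and 92.4 in retina. Delta-crystallin genes, ASL1 and ASL2 (listed as CRYD2), are the main soluble proteins of the avian lens, and ASL2 is also the urea cycle enzyme. ASL1 had 277 and 383 in cornea, against 10.02 and 13.6 in retina, and ASL2 had 1149 and 1233 in cornea, against 80.2 and 59.1 in retina. Of 17 lens genes 6 were higher, 4 lower and 7 not called, with a median of 0.31 that turned to -0.05 without cornea replicate 2.

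For cartilage and bone, 15 of 26 were higher and 7 lower, at a median of 1.70. Of the defining cartilage genes, ACAN and MATN1 were low, while COL9A1, given above with the collagens, was higher in cornea. Aggrecan (ACAN) had 94.1 and 104 normalized counts in cornea, against 82.7 and 45.4 in retina, not called, and MATN1 had only 5 reads in cornea. COMP, which tendon and other fibrous tissue share with cartilage, had 1007 and 999 in cornea, against 42.6 and 34.8 in retina. SPP1 had 581 and 142 in cornea, against 11.3 and 19.7 in retina, its cornea replicates being far apart. Among 8 red cell genes 5 were higher, 2 lower and 1 not called. HBE1, an embryonic globin, had 242 and 166 in cornea, against 1.25 and 1.51 in retina. The median of the red cell list was 2.98, and 2.00 with bounds. The main alpha-globin genes HBAA and HBAD lie in the stretch listed at 0. Of the skin, eyelid and conjunctiva list only 4 genes were tested, 3 of them higher. AGR2, a product of mucous cells, had 1859 and 1475 in cornea, against 1.25 and 0.757 in retina. EDAR and CD36 were the other higher members, and SHH was lower. SPDEF, BPIFB3 and BPIFB4 of the same list were too low to be tested. In cornea SPDEF had 1 and 10 reads, BPIFB4 had 0 and 3, and BPIFB3 had no read. A presence of mucous cells was not tested.

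**Figure D5:**
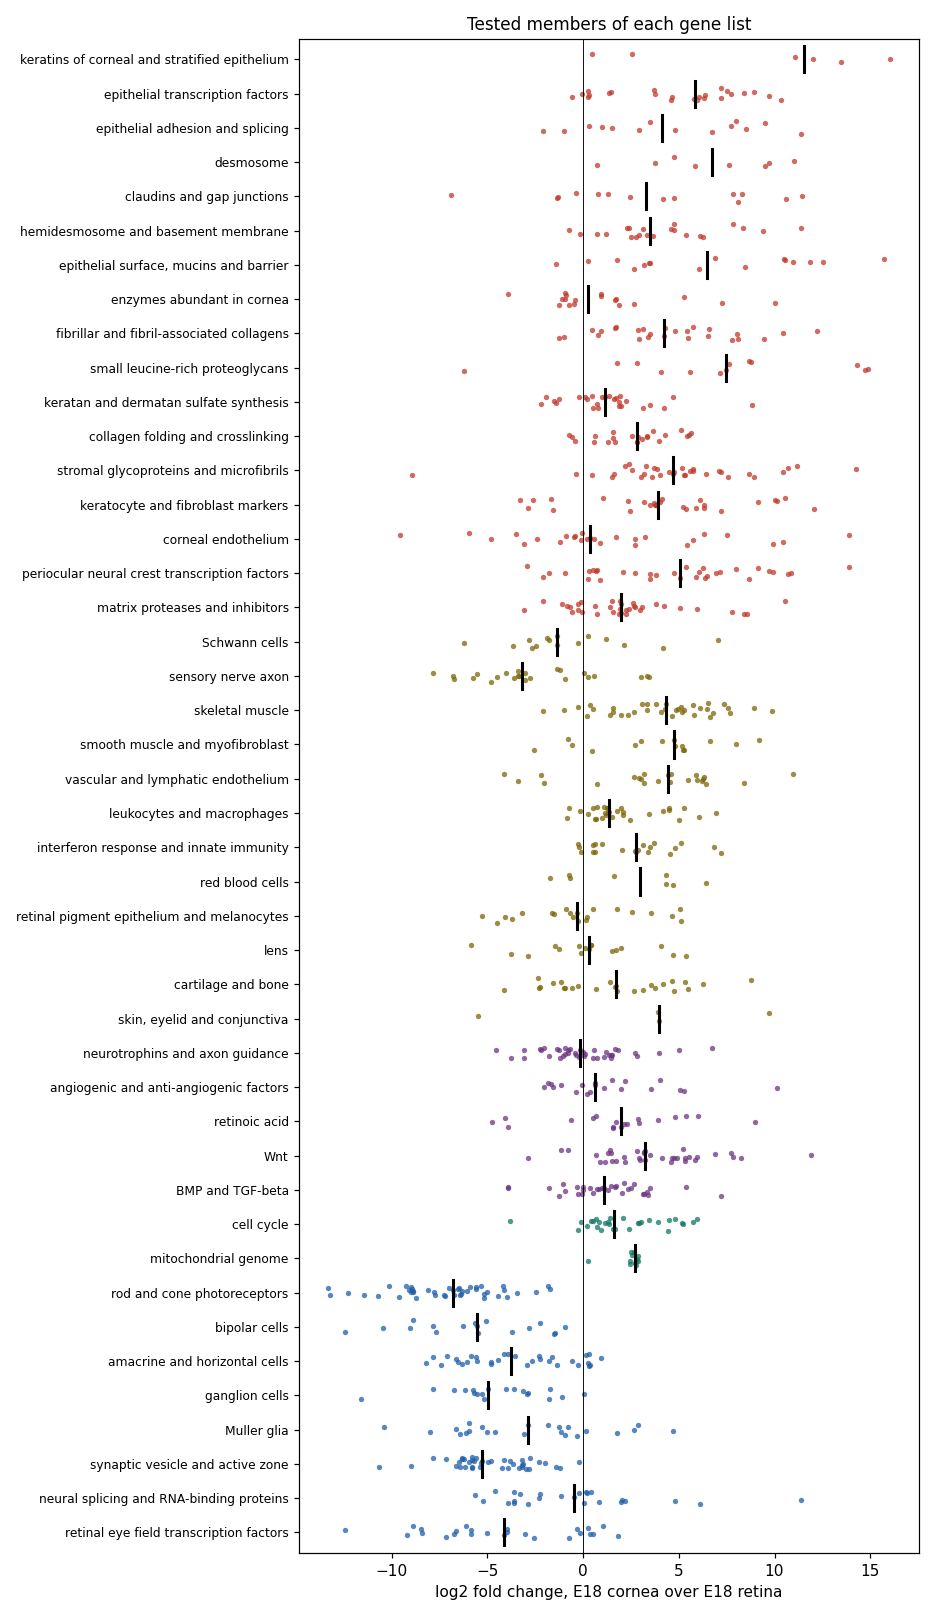
The log2 fold change of E18 cornea over E18 retina (x axis) is plotted for every tested member of 44 lists, with corneal lists in red, other cell types in brown, signalling in purple, cell cycle and mitochondrial genes in green and retinal lists in blue, and black bars mark the medians. Medians run from 11.53 for keratins to -6.78 for photoreceptors.

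On the retinal side, all 44 photoreceptor genes tested were lower in cornea, at a median of -6.78. PRPH2, which shapes the rims of outer segment discs, had no read in cornea and 10555 and 10177 normalized counts in retina, at least 1873-fold lower (adjusted p = 9.3e-09, limma). The cone channel subunit CNGB3 had no read in cornea and 5088 and 4935 in retina, at least 906-fold lower. RBP3, the retinoid carrier between photoreceptors and pigment epithelium, had 0 and 3.69 in cornea, against 21331 and 19387 in retina. IMPG1, a proteoglycan of the interphotoreceptor matrix, had 14.8 and 18.4 in cornea, against 29509 and 28642 in retina. The cone arrestin ARR3 had 47.96 and 28.3 in cornea, against 22954 and 22832 in retina. GNB1, ABCA4, PROM1 and PDE6H were lower as well, but each was well detected in both cornea libraries. PROM1, a protein of membrane protrusions in many epithelia, had 5385 and 4968 in cornea, against 27769.7 and 28493 in retina, and PDE6H had 1845 and 1529 in cornea, against 61767 and 60568 in retina.

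Most genes of inner retinal neurons were lower too. Of 17 bipolar genes 16 were lower and none was higher, at a median of -5.53. CPLX4, a complexin of ribbon synapses, had no read in cornea and 1643 and 1636 normalized counts in retina, at least 296-fold lower. Of 32 amacrine and horizontal genes 25 were lower and 1 was higher, at a median of -3.74. GAD1, which makes GABA, is listed as GAD67 and had 75.6 and 404 in cornea, against 54704 and 49190.4 in retina. PROX1 had 88.5 and 71.2 in cornea, against 4805 and 4336 in retina. Calretinin (CALB2) had 16376 and 23742 in cornea, against 14483 and 15965 in retina, and was called, as higher, only without cornea replicate 1 or with edgeR. The one higher member was NPY, with 269 and 337 in cornea, against 150.4 and 158 in retina, and it was not called without cornea replicate 2 or either retina replicate. Of 19 ganglion cell genes 18 were lower and none was higher, at a median of -4.95. ISL1 had 14.8 and 9.83 in cornea, against 3061 and 3007 in retina. CHRNB3, a nicotinic receptor subunit, had 0 and 3.69 in cornea, against 6822 and 6739 in retina, with 3 reads in cornea. SLC17A6, the glutamate carrier of ganglion cells, had 70.1 and 382 in cornea, against 8881 and 8048 in retina, with most of the cornea level in replicate 2.

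Of 23 Müller glia genes 16 were lower and 4 higher, at a median of -2.88. RLBP1 had 40.6 and 57.7 normalized counts in cornea, against 12294 and 13250.1 in retina. Glutamine synthetase (GLUL) had 1112 and 2008 in cornea, against 37222 and 36451 in retina, and the glutamate carrier SLC1A3 had 384 and 1483 in cornea, against 64488 and 65053 in retina. The higher members were GFAP, CRABP1, TIMP3 and VSTM4. GFAP, the filament of astrocytes and of non-myelinating Schwann cells, had 81.2 and 353 in cornea, against 56.4 and 40.9 in retina. Its log2 fold change of 1.80 was called, but it was 0.75 and not called without cornea replicate 2, and not called without either retina replicate. CRABP1, a retinoic acid binding protein listed as CRABP-I, had 18189 and 25200.1 in cornea, against 2764 and 3123 in retina.

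Of 41 synaptic genes 40 were lower, none was higher and RAB3B was not called, at a median of -5.29. SNAP25 had 249 and 1117 normalized counts in cornea, against 50793 and 52370.4 in retina, and SYT1 had 359.7 and 486 in cornea, against 24609 and 22585 in retina. Without cornea replicate 2 the median was -5.39, and without cornea replicate 1 it was -4.58. The count of members lower was 40 and 39 in these settings. ENO2, the neuronal enolase, and CKB, the brain creatine kinase, are on no list and were chosen after their values were seen. ENO2 had 463 and 537 in cornea, against 61716 and 56289 in retina, and CKB had 1325 and 2202 in cornea, against 51181 and 47454 in retina.

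Regulators of the eye field and of retinal precursors were lower in 18 of 25 cases, at a median of -4.15. SIX6 had 5.53 and 8.60 normalized counts in cornea, against 4236 and 5189 in retina, and OTX2, needed for photoreceptors, had 9.22 and 58.96 in cornea, against 10912 and 12388 in retina. TBX5, a factor of the dorsal retina, had no read in cornea and 306 and 388 in retina, at least 63-fold lower. VAX1 had no read in cornea and 68.9 and 68.1 in retina, at least 12-fold lower. SOHO-1, a homeobox gene of sensory organs, was the one higher member, with 2468 and 1886 in cornea, against 865 and 1289 in retina, and it was not called without cornea replicate 1 or retina replicate 1. TBX2 had 1581 and 1313 in cornea, against 1525 and 2136 in retina, and was called, as lower, only without retina replicate 1 or with library total scaling.

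RNA-binding proteins went in both directions. PTBP1, which represses neural exons in other cells, had 11553 and 12014 normalized counts in cornea, against 2644 and 2542 in retina, and PTBP2, its neural relative, had 1457 and 1475 in cornea, against 3195 and 3263 in retina. RBM47, an RNA-binding protein of endoderm and epithelia, had 406 and 258 in cornea, against 3.76 and 3.79 in retina. ELAVL4, a Hu protein of neurons, had 133 and 354 in cornea, against 8463 and 7821 in retina, CELF3 had 36.9 and 72.5 in cornea, against 2213 and 3177 in retina, and NOVA1 had 549.7 and 882 in cornea, against 8922 and 8264 in retina. Of 25 tested, 8 were higher and 13 lower, at a median of -0.49. Over all genes tested the shares were 36.9% higher and 34.5% lower.

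Among signalling genes, those of the Wnt pathway were higher in 34 of 37 cases and lower in 2, at a median of 3.22. WNT6, a ligand of surface ectoderm, had 5693 and 5829.9 normalized counts in cornea, against 1.25 and 0 in retina, with 1 read in retina and a ratio of 12210.0-fold (2191 to 482200.0). WNT3 had 1588 and 1349 in cornea, against 6.26 and 2.27 in retina, and WNT10A had 2682 and 2817 in cornea, against 563 and 705 in retina. Among receptors FZD2 had 1429.7 and 1827 in cornea, against 21.3 and 30.3 in retina, FZD6 had 5398 and 5689.8 in cornea, against 1212 and 1221 in retina, and FZD10 had 518 and 552 in cornea, against 7.52 and 9.09 in retina. The secreted antagonist DKK2, which is needed for a corneal fate of the ocular surface in mouse, had 15883 and 17684 in cornea, against 145 and 135 in retina. FRZB, another antagonist, had 11878 and 16979 in cornea, against 342 and 423 in retina. AXIN2 and LEF1, which are targets of the pathway in many tissues, were both higher. AXIN2 had 4632 and 4323 in cornea, against 509 and 470.2 in retina, and LEF1, listed as LEF-1, had 529 and 622 in cornea, against 51.4 and 49.2 in retina. SFRP1 and DKK3 were the lower members.

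Retinoic acid genes were higher in 14 of 19 cases and lower in 4, at a median of 1.97. ALDH1A2, which makes retinoic acid in mesenchyme, had 6418 and 6703 normalized counts in cornea, against 218 and 245 in retina. ALDH1A3, listed as ALDH6, had 1586 and 1709.9 in cornea, against 224 and 215 in retina. CYP26A1, which degrades retinoic acid, had 3639.6 and 2776 in cornea, against 67.7 and 84.04 in retina. CRABP2 had 2099 and 3034 in cornea, against 2.51 and 6.06 in retina. ALDH1A1, given above, was the synthesizing enzyme that was lower in cornea, and the receptor RXRG, found in cones, had 304 and 235 in cornea, against 6727 and 7751 in retina.

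Of 33 BMP and TGF-beta genes 20 were higher, 6 lower and 7 not called, at a median of 1.12. TGFB3 had 9336 and 9596 normalized counts in cornea, against 1897 and 1847 in retina, and its receptor TGFBR2 had 819 and 958 in cornea, against 17.5 and 24.2 in retina. BMP4 had 821 and 726 in cornea, against 55.1 and 81.8 in retina. ID1, a target of BMP signals, had 1616 and 2205 in cornea, against 5.01 and 25.7 in retina. Its relatives differed less. ID3 had 754 and 735 in cornea, against 105 and 133 in retina. ID2 had 2262 and 2807 in cornea, against 2246 and 2780 in retina, and was not called. The secreted antagonists went in both directions. Chordin (CHRD), follistatin (FST) and gremlin (GREM1) were higher, CHRD with 330.2 and 273 in cornea, against 26.3 and 31.04 in retina, FST with 378 and 375 in cornea, against 85.2 and 49.97 in retina and GREM1 with 177 and 103 in cornea, against 27.6 and 36.3 in retina. Noggin (NOG) and CHRDL1 were lower, NOG with 3.69 and 17.2 in cornea, against 134 and 142 in retina and CHRDL1 with 229 and 193 in cornea, against 3283 and 3130.1 in retina.

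Cell cycle genes were higher in 26 of 30 cases and lower in 1, at a median of 1.62. MKI67, a marker of cycling cells, had 1725 and 1804 normalized counts in cornea, against 253 and 214 in retina. CDK1 had 1267 and 1335 in cornea, against 90.2 and 80.3 in retina, PLK1 had 689.9 and 754 in cornea, against 20.05 and 18.2 in retina, and RRM2, which makes deoxynucleotides, had 2059 and 2306 in cornea, against 41.3 and 39.4 in retina. CDKN1A (p21), an inhibitor of the cycle listed as CIP1, had 517 and 539 in cornea, against 6994 and 8117 in retina and was the lower member.

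The cornea libraries gave more of their reads to few genes and to mitochondria. The 100 most abundant genes held 31.2 and 32.9% of the reads in cornea, against 18.2 and 18.5% in retina. The 12 mitochondrial genes held 5.41 and 4.07% in cornea, against 0.874 and 0.947% in retina. MT-CO1, a subunit of cytochrome oxidase, had 551929 and 441783 normalized counts in cornea, against 85621 and 91821 in retina. Of the 12, 11 were called higher, at a median of 2.69, and MT-ATP8, which overlaps MT-ATP6, had 7834 and 6094 in cornea, against 5563 and 6062 in retina and was called only without cornea replicate 2. When libraries were scaled to their totals in place of the size factors, the median log2 fold change over all genes moved to -0.19, with 4035 genes higher and 5405 lower, and the mitochondrial median was 2.45.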

How the data were processed

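Whole cornea and whole retina from E18 chicken embryos were sequenced by the study as stranded poly(A) libraries, 2 per tissue. Alignment to galGal4 was done by the authors with STAR, counting on genes with featureCounts and normalization with DESeq2. The annotation release and the strand setting of the counting are not given in the sources used here, so overlapping, antisense and near-identical genes are uncertain. The deposited signal is a gene's read count divided by a size factor of the library. Dividing by the value of 1 read gave whole numbers for 100% of the values (tolerance 0.001), and no column belonged to a sample of another series. Depth was 15662779 to 33517176 reads on genes in the 4 libraries. Counting intervals and floors cover counting error alone.

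The main test was limma 3.58.1 in R 4.3.3, with a mean-variance trend, on log2(normalized count + 1). It was fitted to all 8 libraries with 1 term per group, on the genes left by filterByExpr of edgeR 4.0.16 (minimum count 10). Benjamini-Hochberg adjusted p-values under 0.05 over all genes tested were called. Count tests on the recovered reads, with edgeR's quasi-likelihood test (9456 genes called) and DESeq2 1.42.0 (9138 called), were alternatives. Other alternatives were the pseudocount, the filter, the scaling, the libraries in the fit, the replicate block, a 2-fold limit, adjustment over named genes and leaving out each library. The pipeline was tested on simulated data with known changes.

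A tissue without reads in both libraries was given a floor of 3 reads in its shallower library, and 95% intervals of ratios were computed from the reads. The 46 gene lists were written from general knowledge and described by counts and medians, and the members and lists were chosen with earlier results of these data known. Named genes are the 15 largest changes in each direction among called genes that have a symbol, reach 10 RPM (reads scaled to the library total) in the higher tissue and do not overlap between the tissues, plus list members. Of the latter, the first tested, those at high levels and those that moved against their list were described. Synonyms were resolved with the GRCg7b annotation, whose coordinates were not used. The study's sample table gives the same animal numbers at each age, so that it is unclear whether E18 cornea and E18 retina with the same number share an embryo, and the main fit has no replicate block. Promoter sequences were not analysed here. Some genes that the rule names are not reported here, but counts and medians of lists include them.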

Additional observations from a re-analysis of the deposited data

How the results depend on the processing

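The counts of genes called, higher and lower stayed within 1.5 times the main values under all 15 alternatives. The lowest counts came from the 2-fold limit, 6565 called, 3473 higher and 3092 lower. Leaving out 1 library gave 8141 to 8968 called, 4209 to 4603 higher and 3932 to 4365 lower. Library total scaling gave a share of higher calls of 42.7%, against 51.6% in the main fit.

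The labels name no animal. The sample table of the study numbers its animals alike at every age, and whether E18 libraries with the same number share an embryo is unclear. The correlation across genes of the replicate differences of cornea and retina was 0.053. With the replicate number as a block in the 4 E18 libraries, 9406 genes were called, 4905 higher and 4501 lower, and GAPDH and ENO1 were not called (adjusted p of 0.118 and 0.217 in limma), whereas CDH3, CSF1R, MUC5B, MYH11, SMOC1 and TNC were (adjusted p of 0.00452 to 0.0496).

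Of the named genes, 5 changed sign, none of which was called in the main fit. TFAP2A was -0.0023 (log2) and TYR -0.0125 with library total scaling, and TJP1 was 0.0418 with TMM scaling and 0.0409 with edgeR. Leaving out 1 library gave -0.80 to 1.20 for TYR, -1.99 to 0.64 for TYRP1, -0.52 to 0.18 for DST and -0.0998 to 0.0415 for TJP1. The cause was not tested. Of 1410 counts of list members under the alternatives, 49 moved by over 1.5 times, mostly small ones.

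With 2 libraries per tissue, each retina library weighs on the calls of genes with modest differences. The value of 1 read limits what can be said of genes absent from a tissue, and overlapping genes cannot be told apart.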

Other observations

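Ribosomal protein genes were higher in cornea in 58 of 59 tested cases, at a median log2 fold change of 2.26, or 2.01 with library total scaling. The one lower member was RPL3L, a form of striated muscle in mammals, with 3.69 and 1.23 normalized counts in cornea, against 85.2 and 93.1 in retina. These genes also differed between the cornea replicates, by a median log2 ratio of 0.476 for replicate 2 over replicate 1.

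Factors that promote or restrain vessel growth were higher in 10 of 20 tested cases and lower in 6, at a median of 0.61. ANGPT2, listed as ANGIOPOIETIN-2, had 1055 and 1523 normalized counts in cornea, against 4016 and 3941 in retina, and TNMD (tenomodulin), an inhibitor of vessel growth, had 1808 and 1710 in cornea, against 0 and 1.51 in retina. Of 21 genes of interferon response and innate immunity, 15 were higher and none lower, at a median of 2.79. The avian lipocalin EX-FABP had 5934 and 7950.04 in cornea, against 165 and 232 in retina, and avidin (AVD) had 1007 and 1554 in cornea, against 11.3 and 9.09 in retina.

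MicroRNA genes have few reads in poly(A) libraries, which see their precursors. Of 14 rows tested, 5 were higher and 6 lower, and the median of -0.48 changed sign in 4 of the alternatives. gga-mir-205a, known from epithelia, had 86.7 and 78.6 normalized counts in cornea and no read in retina, and gga-mir-184 had 127 and 59.0 in cornea and no read in retina. gga-mir-124a-2, known from neurons, had no read in cornea and 321 and 379 in retina. No gene of the W chromosome list was tested, since its 3 rows lie in the stretch listed at 0.

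A few abundant genes on no list were chosen after their values were seen. FGFBP2 had 167168 and 174787 normalized counts in cornea, against 76.4 and 97.7 in retina. The uroplakin gene UPK1B had 9082 and 4945 in cornea, against 3.76 and 2.27 in retina. The homeobox gene EMX2 had 1319 and 1799.6 in cornea and no read in retina.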
